A study of Mus musculus with 52 samples.

Results

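Frontal cortex of 14 female APP/E4 mice was compared by diet, with 7 animals on a high-fat diet (HFD) and 7 on a normal diet (ND). These 14 libraries are all those labelled with genotype APP/E4 and gender F, out of 52 libraries in the series. All 14 mice carried the APP/PS1ΔE9 transgenes and were homozygous for human APOE4 put in place of mouse Apoe by gene targeting, so the ND controls carried both as well. HFD was a Western diet in which anhydrous milk fat and corn oil supplied 40% of calories, protein supplied 16.8% and carbohydrate 42.6%, and ND was a standard laboratory chow. Mice were on average 3.5 months old when the diets began, feeding went on for 3 months, and behaviour was tested when their mean age was 14.7 months. The labels give neither the age of single animals nor the age at dissection. Whether the mice still ate the diet at dissection is not stated either, so on HFD and on ND below name the diet groups. Mice were perfused before the cortex was taken, and RNA with an integrity number above 8 went into Illumina mRNA libraries. The wider study crossed this diet with APOE genotype and sex, and its 15 APP/E3 females (8 HFD and 7 ND, with human APOE3) and 11 APP/E4 males (5 HFD and 6 ND) serve below as the other diet comparisons.

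The transgenes drive amyloid plaque formation. Microglia surround plaques and sense lipid and cell debris through the receptor Trem2, which signals through its adaptor Tyrobp to the kinase Syk, and cells that respond in this way raise lysosomal, complement and lipid-handling genes. APOE is the main lipid carrier of the brain and a ligand of Trem2, and APOE4 is the risk form for Alzheimer disease. The design text of the series names Tyrobp as the hub of an immune network tied to female APP/E4 mice on HFD, so the genes of that network and of the other brain cell types were examined first as groups and then one by one.

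The 14 libraries held 7.29 to 11.7 M counts each. Values below are CPM, the counts of a gene scaled to a common library total after adjustment by the trimmed mean of M-values (TMM), and 3 counts, taken as the detection floor, correspond to 0.257 to 0.412 CPM in a library. Each title carries its own animal number, so the spread between libraries is that between animals and covers dissection and library preparation. Xist lay between 572 and 1104 CPM in all 14 and the Y-linked gene Ddx3y at or below 0.767 CPM, which matched the labelled sex. The cortical markers Slc17a7 (972 to 1797 CPM) and Camk2a (2368 to 5338 CPM) were present in every library. Of the 14 libraries 4 stood apart. In HFD females 1 and 3 and ND females 6 and 7, Csl lay between 0.0936 and 1.15 CPM and Rps10 between 18.3 and 21.4 CPM, against 12.97 to 16.5 and 1.89 to 3.90 CPM in the other 10. These 4 are called the low-Csl libraries below, as are APP/E3 libraries with the same pattern. Across both genotypes, Csl lay between 0.0936 and 0.219 CPM in 7 low-Csl HFD libraries. It lay between 0.77 and 1.15 CPM in 4 low-Csl ND libraries. Within the class this split follows diet, and its source cannot be told apart from diet. Rps10 has processed copies that can take its reads, and nothing in the labels says what sets these libraries apart. HFD female 4 also stood apart, with 1856 CPM summed over the olfactory bulb markers against 155 to 555 CPM in the other 13 libraries. Results that rest on these libraries are given with and without them. Among APP/E3 females, HFD libraries 1, 2, 3, 7 and 8 and ND libraries 4 and 7 were low-Csl. Diet and this class are therefore mixed in the APP/E3 female comparison and in the genotype difference below.

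No gene passed an adjusted p of 0.05 between HFD and ND (0 of 15195 genes tested, 0%, edgeR quasi-likelihood test with Benjamini-Hochberg adjustment). DESeq2 and limma voom also called 0. Without adjustment, 1201 genes had p under 0.05 (7.9%), and 730 of them were higher (4.8%) and 471 lower on HFD (3.1%). DESeq2 gave 1236 and voom 1176 such genes. Differences were small: the median size of a gene's log2 difference was 0.09 and the median standard error (SE) was 0.11. Of all genes, 51.6% had a difference above 0 and the median difference was 0.01. The values that follow therefore describe these animals, and none is a called change.

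The smallest p belonged to Slc19a3, which encodes a transporter for thiamine, the vitamin cofactor of pyruvate dehydrogenase. Slc19a3 lay at a lowest, median and highest value of 4.61, 5.11 and 6.86 CPM in HFD females and at 2.85, 3.29 and 4.21 CPM in ND females. Every HFD animal was above every ND animal. The log2 difference was 0.68 ± 0.14 (SE), with an edgeR adjusted p of 0.166. Leaving out single libraries gave log2 differences from 0.61 to 0.75, and the lowest adjusted p, 0.0670, came without ND female 4. The smallest edgeR adjusted p of any gene was 0.760 without ND female 2 and 0.722 in a fit of only the 14 libraries. Without the low-Csl libraries the log2 difference was 0.60 (adjusted p = 0.675).

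**Figure D1:**
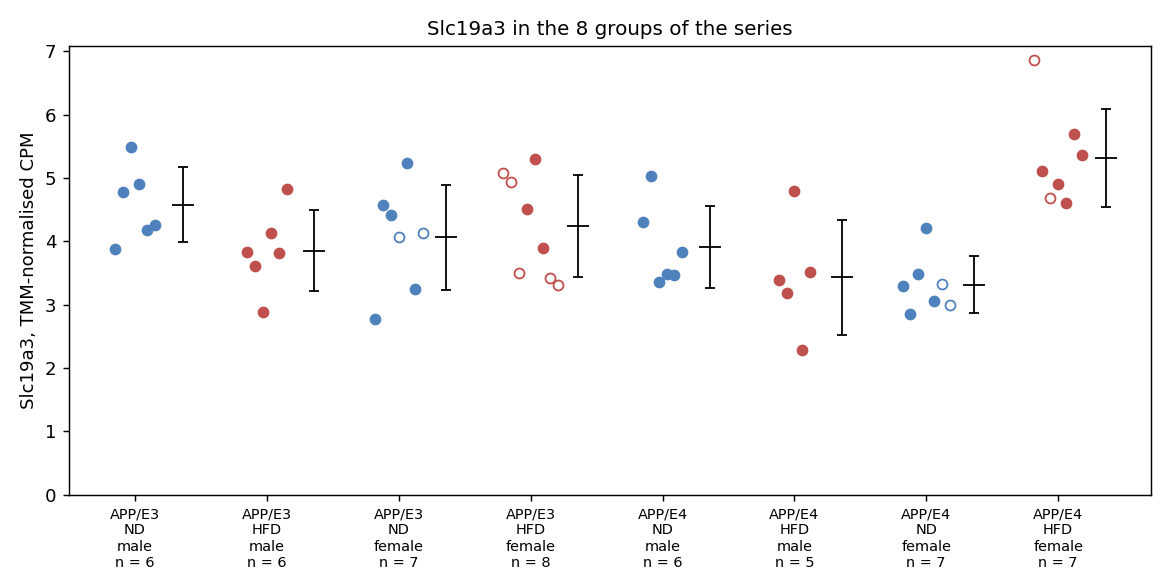
Slc19a3 in TMM-normalised CPM in all 52 libraries by genotype, diet and sex (red HFD, blue ND, open circles low-Csl libraries, bars mean ± SD, n under each group). APP/E4 females had the highest group mean on HFD (5.32 CPM) and the lowest on ND (3.31 CPM), and the other 6 group means lay between them. The gene was picked for its smallest p between these APP/E4 female groups.

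Across the 8 groups of the series, the mean of Slc19a3 was 5.32 ± 0.777 CPM in APP/E4 HFD females and 3.31 ± 0.450 CPM in APP/E4 ND females (SD, n = 7 each). The next group below the first was APP/E3 ND males at 4.58 ± 0.589 CPM, followed by APP/E3 HFD females at 4.24 ± 0.808 and APP/E3 ND females at 4.06 ± 0.829 CPM. APP/E4 ND males (3.91 ± 0.647 CPM), APP/E3 HFD males (3.85 ± 0.638 CPM) and APP/E4 HFD males (3.43 ± 0.906 CPM) came next. Neighbouring groups in this order overlapped in their ranges. The diet difference was 0.06 ± 0.14 in APP/E3 females and -0.19 ± 0.16 in APP/E4 males. The difference between the APP/E4 sexes in this diet effect was 0.87 ± 0.21 (edgeR adjusted p = 0.997), and that between the genotypes in females was 0.63 ± 0.19 (edgeR adjusted p = 0.802). Slc19a3 was picked for its smallest p between the APP/E4 female diet groups. Their place at the ends of this order, and the size of these differences in diet effect, were therefore partly set by that choice.

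Next among the genes higher on HFD was A330023F24Rik, a long noncoding RNA gene on chromosome 1 whose locus holds Mir29b-2 and Mir29c in RefSeq. The mature products of both are printed here in the RefSeq form (GRCm38.p6, plus strand, chr1:195037091-195037113 and chr1:195037600-195037621), because they share the seed, bases 2 to 8, shown in capitals. Small RNAs of this length were not measured in these mRNA libraries.
miR-29b-3p: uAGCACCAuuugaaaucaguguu
miR-29c-3p: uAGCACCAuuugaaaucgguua
A330023F24Rik had 33.3, 38.8 and 70.4 CPM (lowest, median, highest) in HFD females and 22.3, 24.4 and 36.1 CPM in ND females. In 6 of 7 HFD animals it exceeded every ND animal. The log2 difference was 0.73 ± 0.18 (edgeR adjusted p = 0.599), and it ran from 0.59 without HFD female 3 to 0.82 without HFD female 6. The highest value of each diet group came from a low-Csl library, and without those 4 libraries the log2 difference was 0.65. In APP/E3 females it was 0.14 ± 0.17 and in APP/E4 males 0.37 ± 0.20.

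**Figure D2:**
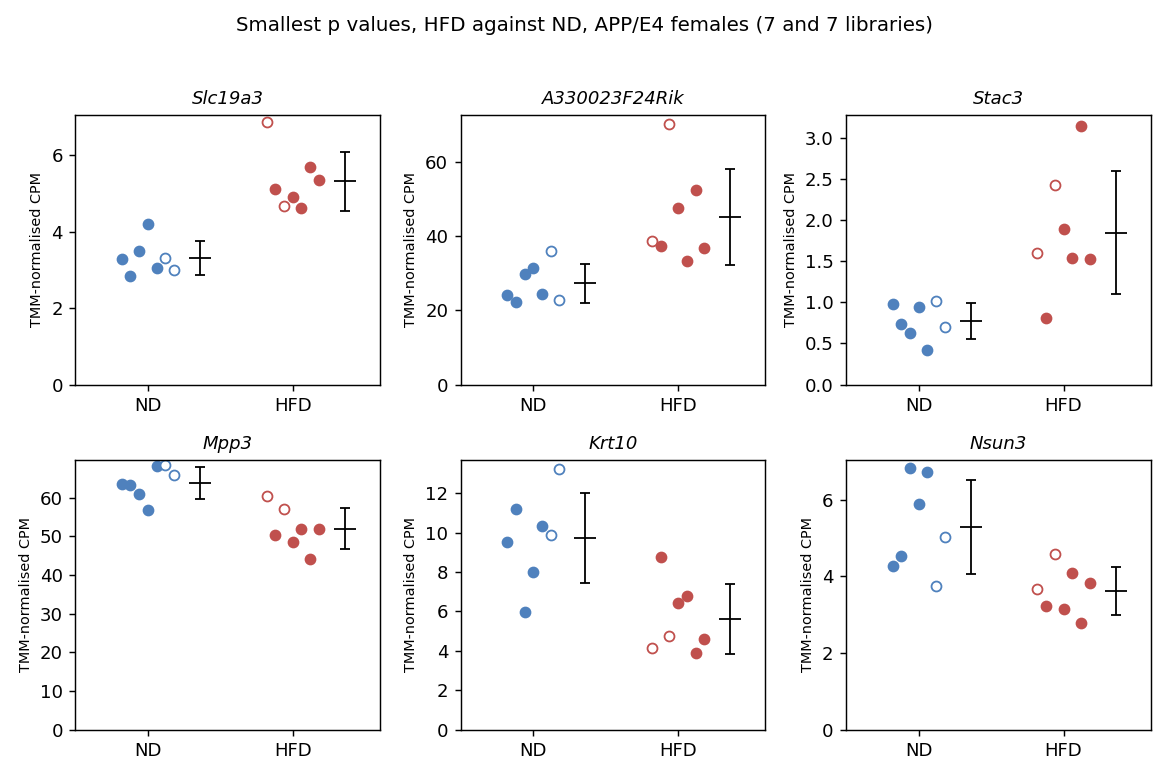
TMM-normalised CPM of the 3 genes with the smallest p among those higher on HFD (top) and those lower (bottom) in the 14 APP/E4 females (blue ND, red HFD, open circles low-Csl libraries, bars mean ± SD, n = 7 each). Slc19a3 shows no overlap between diets, and the other 5 overlap in at least 1 animal.

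Stac3, an adaptor of calcium channels in muscle, had 0.807, 1.597 and 3.15 CPM on HFD and 0.421, 0.739 and 1.02 CPM on ND (log2 difference 1.24 ± 0.31). It was above all ND animals in 6 of 7 HFD animals. Amt, a part of the mitochondrial glycine cleavage system, had 16.6, 20.8 and 25.3 CPM on HFD and 12.6, 17.0 and 20.8 CPM on ND, and 3 HFD animals lay above all ND animals. Its log2 difference was 0.38 ± 0.10 in APP/E4 females and -0.11 ± 0.09 in APP/E3 females, and the genotype difference in the diet effect was 0.50 ± 0.14 (edgeR adjusted p = 0.802). Mfn1, a GTPase that fuses outer mitochondrial membranes, had 58.5, 69.9 and 84.2 CPM on HFD and 54.7, 58.8 and 64.7 CPM on ND, and Mccc1, of leucine breakdown, had 14.3, 18.2 and 21.3 CPM against 11.6, 13.6 and 17.8 CPM. Mfn1 exceeded all ND animals in 6 HFD animals and Mccc1 in 4.

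The other 9 of the 15 higher genes with the smallest p were Ccdc151, Ccdc24, Cd160, Hus1, Stk38, Zgpat, Trim12c, Dpp7 and Scamp2, each with an edgeR adjusted p of 0.599. Ccdc151, which takes part in assembly of motile cilia, had 4.15, 5.89 and 7.62 CPM on HFD and 4.21, 4.51 and 4.73 CPM on ND. Its lowest value was in an HFD animal, and 6 other HFD animals were above all ND animals. Hus1, of the DNA damage checkpoint, had 16.7, 19.0 and 24.6 CPM against 12.6, 16.0 and 18.3 CPM, and Stk38, a kinase of the Hippo pathway family, had 22.3, 25.6 and 31.5 CPM against 18.4, 21.0 and 23.8 CPM. Both exceeded all ND animals in 6 HFD animals. Dpp7, a lysosomal peptidase, had 21.2, 23.1 and 27.4 CPM against 14.3, 19.3 and 21.8 CPM. Cd160 (log2 difference 1.11 ± 0.31) and Ccdc24 (1.32 ± 0.36) had medians at or below 1.21 CPM in both groups.

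Genes lower on HFD had differences of similar size. Mpp3, a membrane scaffold of the MAGUK family, had 44.1, 51.9 and 60.4 CPM on HFD and 56.7, 63.6 and 68.6 CPM on ND, a log2 difference of -0.30 ± 0.08 (edgeR adjusted p = 0.599). In 5 HFD animals it was below every ND animal. Krt10, a keratin gene, had 3.87, 4.78 and 8.74 CPM on HFD and 5.97, 9.88 and 13.2 CPM on ND (-0.81 ± 0.21). Nsun3, an RNA methyltransferase of mitochondrial transfer RNA, had 2.78, 3.66 and 4.59 CPM against 3.75, 5.02 and 6.84 CPM (-0.54 ± 0.14). Krt10 and Nsun3 each lay below all ND animals in 4 HFD animals.

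Slc6a15, a neuronal transporter of branched-chain amino acids and proline, had 59.0, 62.6 and 78.3 CPM on HFD and 69.1, 82.5 and 94.2 CPM on ND, and Akap1, an anchor of protein kinase A at the outer mitochondrial membrane, had 48.9, 51.1 and 61.1 CPM against 57.2, 60.9 and 64.1 CPM. Slc6a15 lay below all ND animals in 5 HFD animals and Akap1 in 6. Trappc9, of vesicle traffic and NF-kB signalling, had 79.9, 83.2 and 88.6 CPM against 88.2, 91.9 and 97.6 CPM, and 6 HFD animals were below all ND animals. Med1, a Mediator subunit that binds nuclear receptors, had 47.0, 52.5 and 59.5 CPM against 54.0, 66.0 and 70.2 CPM, with 5 HFD animals below all ND animals. Pth2r, a receptor of parathyroid hormone family peptides, had 0.640, 0.881 and 2.02 CPM against 1.15, 1.83 and 2.32 CPM, and HFD female 2 held the high value. Among the others, Pcnxl4, Mfsd4, A830018L16Rik, Tnfaip8l3 and Kifc1, log2 differences ran from -0.19 (Pcnxl4) to -0.86 (Kifc1).

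Arid3c differed from the rest of this group. It lay at 0, 0.255 and 0.968 CPM on HFD and at 0, 0.421 and 10.99 CPM on ND. Only ND females 6 and 7, both low-Csl libraries, exceeded 1 CPM on ND. The log2 difference was -3.22 ± 0.96 with all libraries and 0.07 without the low-Csl libraries.

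A separate look at animals rather than p values found 8 genes with every HFD animal above every ND animal (0.0526% of 15195) and 3 with every HFD animal below (0.0197%). They were singled out after their values were seen, and each had an edgeR adjusted p of 0.599 except Slc19a3. How many genes would separate like this by chance was not worked out, so no result is read from these counts. Lipa, the lysosomal acid lipase that frees cholesterol and fatty acids from lipoproteins, lay between 26.5 and 32.9 CPM on HFD and between 23.7 and 26.1 CPM on ND (log2 difference 0.23 ± 0.08). Gusb, lysosomal beta-glucuronidase, lay between 20.6 and 25.9 CPM against 15.9 and 20.1 CPM. Slc16a1, which carries lactate and ketone bodies across membranes and is strong in brain endothelium, lay between 52.6 and 60.1 CPM against 38.4 and 50.7 CPM (0.26 ± 0.08). S1pr1, a sphingosine phosphate receptor of endothelium and astrocytes, lay between 197 and 245 CPM against 178 and 197 CPM. Pycard, the inflammasome adaptor ASC, lay between 3.09 and 3.57 CPM against 2.07 and 2.96 CPM (0.39 ± 0.15). Zfp69 and Pnpt1 were the other higher genes, with log2 differences of 0.71 ± 0.25 and 0.17 ± 0.07.

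The 3 genes without overlap in the lower direction were Negr1, Wdr11 and Asxl1. Negr1, a neuronal adhesion protein whose human locus is linked to body weight, lay between 229 and 287 CPM on HFD and between 290.5 and 353 CPM on ND (log2 difference -0.27 ± 0.10). Wdr11 lay between 51.7 and 56.1 CPM against 56.2 and 67.7 CPM. Asxl1, a chromatin regulator of the Polycomb group, lay between 54.2 and 58.8 CPM against 58.8 and 69.2 CPM.

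Genes of the Trem2 and Tyrobp receptor chain were then taken as a group. This list and those below were chosen with earlier results of these data known, so their directions are no independent evidence. Of 21 listed names 18 passed the filter on low counts. All 18 had a log2 difference above 0, where 51.6% of all genes did, and 4 had an unadjusted p under 0.05 in that direction, where 4.8% of all genes did. That number was 3 to 7 when 1 library was left out, with 7 without ND female 4. Their median log2 difference was 0.23, against 0.01 over all genes. In bulk tissue, more cells of a type and more RNA per cell cannot be told apart, nor can fewer cells and less RNA per cell. This holds for every cell type group below.

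Tyrobp itself lay at 20.1, 29.8 and 37.6 CPM on HFD and 18.5, 23.6 and 30.4 CPM on ND, with a log2 difference of 0.29 ± 0.14 (edgeR adjusted p = 0.626). In 3 HFD animals it was above all ND animals, and HFD female 7 was the highest. Trem2 lay at 17.4, 28.0 and 32.4 CPM against 18.0, 23.2 and 30.6 CPM (0.19 ± 0.14, edgeR adjusted p = 0.732), and its lowest as well as its highest value came from HFD animals. Syk, the kinase recruited by Tyrobp, lay at 6.09, 7.68 and 8.45 CPM against 3.48, 5.89 and 6.84 CPM (0.41 ± 0.14), and 4 HFD animals were above all ND animals. Lcp2, an adaptor downstream of Syk, lay at 3.90, 5.35 and 7.26 CPM against 3.17, 3.75 and 4.53 CPM (0.47 ± 0.14, adjusted p = 0.599), and 6 HFD animals were above all ND animals. Lyn, a Src family kinase, lay at 10.5, 13.1 and 24.7 CPM against 7.24, 10.7 and 13.9 CPM. Its log2 difference of 0.46 became 0.28 without HFD female 4, which held the highest value.

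The Tyrobp immune network list, taken from the study's theme and therefore no independent evidence of its direction, had 48 of 49 tested genes above 0, a median of 0.22 and 11 genes with unadjusted p under 0.05, all higher. This count rested on single libraries, from 4 without ND female 7 to 19 without ND female 4, and was 4 without the low-Csl libraries. The median was 0.03 in APP/E3 females and 0.15 in APP/E4 males. Csf1r, the receptor on which microglia depend for survival, lay at 145, 184 and 198 CPM on HFD and 121, 139 and 179 CPM on ND, and 4 HFD animals exceeded all ND animals. Ly86, partner of an endotoxin receptor relative, lay at 13.7, 20.5 and 22.7 CPM against 13.7, 15.3 and 19.3 CPM, and 5 HFD animals exceeded all ND animals. Only 1 gene of this list had an unadjusted p under 0.05 for the genotype difference in the diet effect, and 0 for the sex difference. Across all genes these shares were 6.07% and 3.85%.

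Homeostatic microglial genes, which mark microglia away from plaques, lay higher together with the plaque-related ones. Of 25 genes 23 were above 0, with a median of 0.17 and 9 at unadjusted p under 0.05, or 3 without the low-Csl libraries. Tmem119, a marker of resident microglia, lay at 29.6, 36.6 and 42.2 CPM on HFD and 25.5, 26.1 and 34.3 CPM on ND (0.35 ± 0.10, edgeR adjusted p = 0.599), and 5 HFD animals were above all ND animals. Fcrls, another resident marker, lay at 40.3, 47.8 and 54.4 CPM against 31.5, 37.8 and 47.0 CPM, and Selplg at 12.3, 19.1 and 20.7 CPM against 8.81, 15.7 and 17.3 CPM. Selplg had a log2 difference of 0.38 with all libraries and 0.17 without the low-Csl libraries. Tmem119 differed by 0.00 ± 0.10 in APP/E3 females and by -0.02 ± 0.12 in APP/E4 males.

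Among plaque-induced microglial genes 33 of 36 were above 0, with a median of 0.16 and 10 at unadjusted p under 0.05, from 4 without HFD female 7 to 12 without ND female 4. Without the low-Csl libraries 28 of 35 were above 0, and 8 had an unadjusted p under 0.05. Hexa, a lysosomal hexosaminidase, lay at 59.3, 66.2 and 73.0 CPM on HFD and 49.2, 60.5 and 66.0 CPM on ND (0.22 ± 0.08). Axl, a receptor for dying cells, lay at 63.1, 72.5 and 86.4 CPM against 57.2, 61.7 and 75.1 CPM (0.21 ± 0.09). Only 1 HFD animal exceeded all ND animals for Axl, whose highest ND value came from ND female 4. Igf1 lay at 10.9, 14.3 and 40.0 CPM against 7.96, 11.9 and 15.1 CPM, and the log2 difference of 0.63 became 0.30 without HFD female 4. The lysosome and phagocyte oxidase list, which shares some of these genes, had 30 of 33 genes above 0, a median of 0.14 and 11 at unadjusted p under 0.05, from 6 (without HFD female 1, HFD female 7 or ND female 7) to 14. Without the low-Csl libraries this count was 5. Grn, progranulin of the lysosome, lay at 83.8, 103 and 106 CPM against 71.4, 84.0 and 95.4 CPM, and the protease gene Ctsh at 13.2, 16.7 and 19.4 CPM against 10.03, 13.1 and 15.7 CPM. Each exceeded all ND animals in 4 HFD animals.

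**Figure D3:**
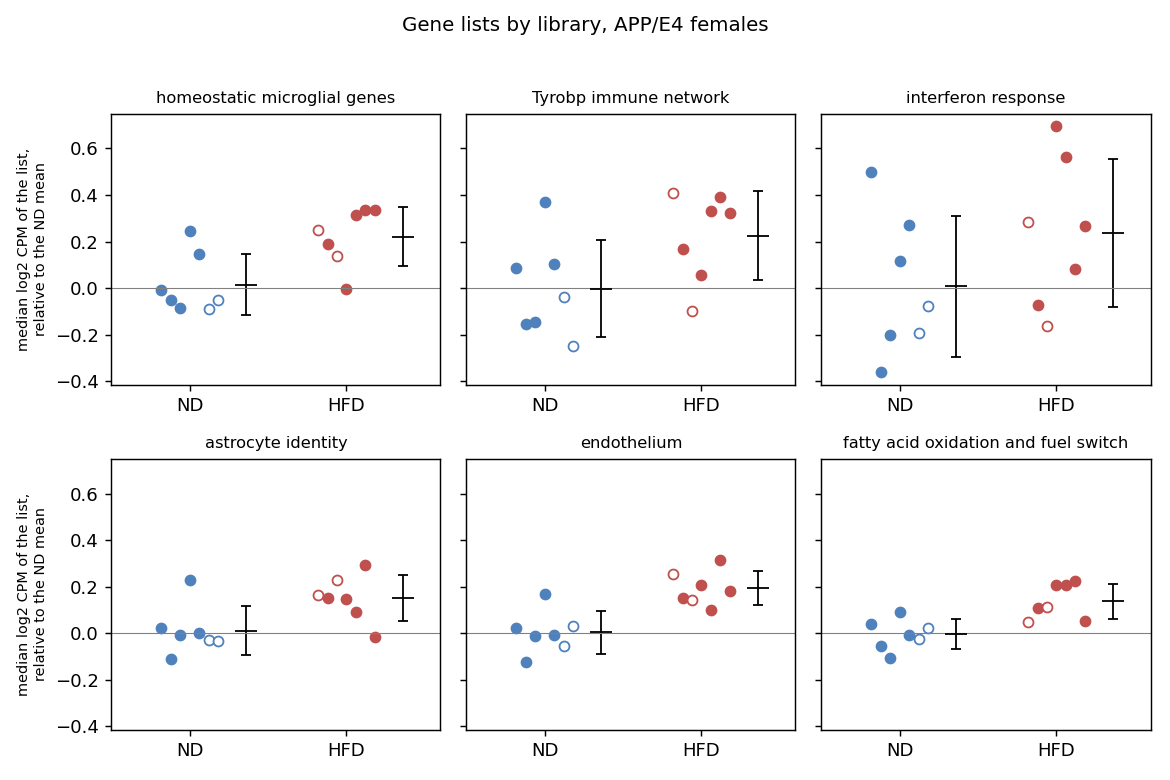
Median log2 CPM over each of 6 gene lists in each library, relative to the ND mean of every gene (blue ND, red HFD, open circles low-Csl libraries, bars mean ± SD of the 7 libraries). In homeostatic microglial genes 4 HFD libraries lie above all ND libraries, in endothelium 4 and in fatty acid oxidation 5, and ND female 4 is the highest ND library in these 3 lists. In each of the Tyrobp immune network, interferon response and astrocyte identity lists 2 HFD libraries lie above all ND libraries.

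Library by library, the score of the homeostatic list, the median log2 value of its genes relative to the ND mean, ran from -0.005 (HFD female 4) to 0.34 on HFD and from -0.09 to 0.24 on ND. All 7 HFD animals were above the ND median, and 4 were above all ND animals. The Tyrobp network score ran from -0.098 (HFD female 3) to 0.409 on HFD and from -0.247 to 0.368 on ND. Only 2 HFD animals were above all ND animals in that list, and 0 were in the complement and antigen presentation lists. ND female 4 had the highest ND score in the homeostatic, Tyrobp network, plaque-induced, complement, lysosome, antigen presentation, astrocyte identity and endothelial lists. Without this animal the median log2 difference was 0.31 for the receptor chain, 0.29 for the Tyrobp network and 0.24 for the homeostatic list. Without the low-Csl libraries these 3 medians were 0.23, 0.17 and 0.17.

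Complement genes had 19 of 21 members above 0 (median 0.19), and 2 had an unadjusted p under 0.05, or 0 to 4 when 1 library was left out (0 without ND female 2 or 5). Cfp, properdin of the alternative pathway, lay at 4.21, 7.30 and 10.2 CPM on HFD and 2.85, 4.85 and 6.95 CPM on ND (0.46 ± 0.21), and 5 HFD animals exceeded all ND animals. C1qc, which starts the classical pathway, lay at 56.9, 72.4 and 78.6 CPM against 47.6, 56.2 and 76.8 CPM (0.24 ± 0.11, edgeR adjusted p = 0.618), and C1qb lay at 69.9, 92.3 and 101.5 CPM against 60.8, 70.9 and 98.9 CPM. For both C1q genes only 2 HFD animals exceeded all ND animals.

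Toll-like receptor and NF-kB genes had 27 of 31 members above 0, with a median of 0.18 and 5 at unadjusted p under 0.05. Leaving out 1 library gave 2 (without HFD female 4) to 6 such genes. The median was -0.05 in APP/E3 females and -0.02 in APP/E4 males. Tlr7, a sensor of single-stranded RNA, lay at 6.09, 8.20 and 9.69 CPM on HFD and 3.08, 6.23 and 7.48 CPM on ND (0.47 ± 0.17), and 6 HFD animals exceeded all ND animals. Tlr3, a sensor of double-stranded RNA, lay at 17.1, 21.8 and 30.7 CPM against 16.3, 18.2 and 21.7 CPM, and HFD female 4 was its highest. Irak1, a kinase behind these receptors, lay at 48.0, 56.5 and 65.2 CPM against 44.0, 49.99 and 58.6 CPM.

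Interferon response genes had 46 of 49 members above 0, a median of 0.20 and 9 at unadjusted p under 0.05. Without HFD female 4 these values were 41 of 49, 0.15 and 2, and without HFD female 5 they were 42 of 49, 0.15 and 3. The count at unadjusted p under 0.05 was also 2 without ND female 2 or 3, and it was 13 without ND female 1, while the median reached 0.31 without HFD female 3. The median was 0.06 in APP/E3 females and 0.19 in APP/E4 males. Oasl2, of the oligoadenylate synthetase family, lay at 6.59, 12.9 and 22.8 CPM on HFD and 4.76, 6.44 and 14.7 CPM on ND (0.71 ± 0.30). Ifi27l2a lay at 1.59, 2.42 and 5.92 CPM against 1.37, 1.58 and 2.80 CPM (0.92 ± 0.32). Gbp6, a guanylate-binding protein, lay at 1.78, 3.19 and 7.43 CPM against 1.49, 2.29 and 3.17 CPM, and Ifitm3 at 10.2, 15.01 and 25.6 CPM against 8.76, 10.9 and 17.2 CPM. HFD female 4 had the highest value of all 4 genes, and its list score of 0.70 was the highest of the 14 libraries. HFD female 5 followed at 0.564, and ND female 1 was the highest ND animal at 0.50. For Ifi27l2a, HFD females 5 and 7 were close to the highest value, at 5.635 and 5.611 CPM.

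Interferon acts through response elements in promoters, so promoters of 7 genes were looked for. The 3 that held a match are shown, with matches to the core of the interferon-stimulated response element (the half-site GAAA given again after any 2 bases, searched on both strands) in capitals. Each is the stretch of 250 bases before the transcription start in RefSeq (GRCm38.p6), at chr5:120907526-120907775 (minus strand) for Oas1a, chr2:122147437-122147686 (plus strand) for B2m and chr7:104353350-104353599 (minus strand) for Trim12c. Oas1a was chosen after its values were seen. The promoters of Oasl2 and Ifitm3 held no match in this window, and those of Ifi27l2a and Gbp6 were not searched.
Oas1a: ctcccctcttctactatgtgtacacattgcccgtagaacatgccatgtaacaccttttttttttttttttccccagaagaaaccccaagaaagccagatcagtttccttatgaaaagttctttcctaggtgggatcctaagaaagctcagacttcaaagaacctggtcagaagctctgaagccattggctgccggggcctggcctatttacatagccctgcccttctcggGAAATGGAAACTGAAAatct
B2m: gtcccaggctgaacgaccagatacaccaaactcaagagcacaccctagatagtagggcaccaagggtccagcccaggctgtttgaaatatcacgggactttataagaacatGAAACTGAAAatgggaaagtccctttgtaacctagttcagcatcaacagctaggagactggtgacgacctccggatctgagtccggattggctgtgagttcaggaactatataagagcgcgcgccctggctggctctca
Trim12c: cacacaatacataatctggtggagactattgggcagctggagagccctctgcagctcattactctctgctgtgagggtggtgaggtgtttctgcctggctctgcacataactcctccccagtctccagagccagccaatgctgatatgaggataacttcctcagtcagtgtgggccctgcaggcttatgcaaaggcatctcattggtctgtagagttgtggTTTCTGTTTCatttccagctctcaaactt
The Oas1a promoter holds 2 overlapping matches, the B2m promoter 1 and the Trim12c promoter 1 on the opposite strand. Their first printed bases lie 20 and 14 bases before the start in Oas1a, 139 in B2m and 29 in Trim12c. The core occurred in 3.46% of 27025 promoters of the same length, in 16 of 38 interferon list genes with a promoter in the table (42.1%) and in 3 of 15 antigen presentation genes (20%). Oas1a lay at 0.936, 1.79 and 2.93 CPM on HFD and 0.317, 0.852 and 2.07 CPM on ND (0.77 ± 0.34, edgeR adjusted p = 0.618), and 2 HFD animals exceeded all ND animals. B2m, the light chain of class I major histocompatibility complex (MHC) molecules, lay at 125, 137 and 205 CPM against 90.0, 126 and 145 CPM, and 3 HFD animals exceeded all ND animals. Trim12c, of an antiviral Trim family whose close copies may share its reads, lay at 3.84, 5.26 and 6.66 CPM against 2.74, 3.17 and 4.53 CPM, and 5 HFD animals exceeded all ND animals. The antigen presentation list had 19 of 21 members above 0 and a median of 0.18, with 2 at unadjusted p under 0.05 (0 without HFD female 7). One of these, Psmb10 of the immunoproteasome, lay between 22.2 and 39.5 CPM on HFD and between 21.6 and 31.1 CPM on ND.

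**Figure D4:**
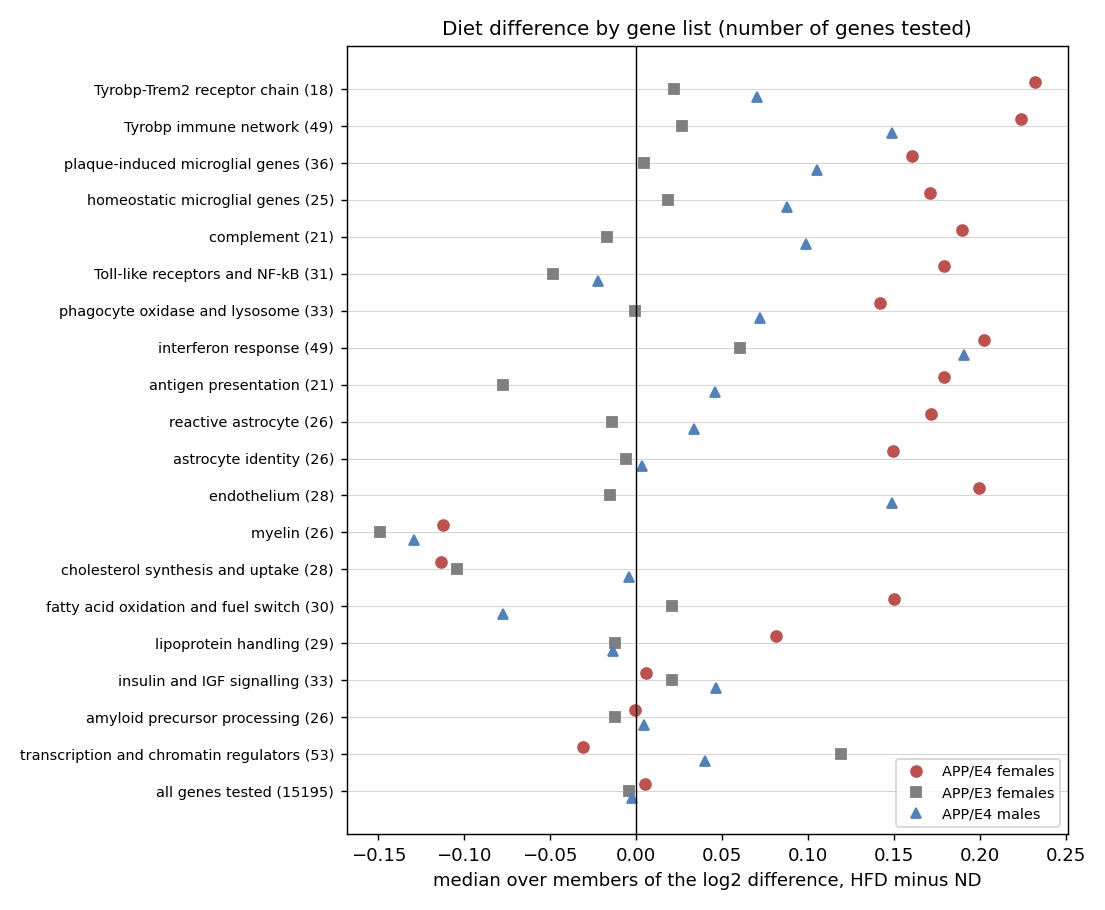
Median log2 difference between HFD and ND over the tested genes of 19 lists and of all genes, in APP/E4 females (red circles), APP/E3 females (grey squares) and APP/E4 males (blue triangles). In APP/E4 females the microglial, immune, astrocyte and endothelial lists lie between 0.14 and 0.23, and the median over all genes is 0.01.

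Lists of astrocytes and endothelium lay in the same direction as the microglial lists. All 26 astrocyte identity genes were above 0 (median 0.15), 9 at unadjusted p under 0.05, from 4 without ND female 2 to 13 without ND female 4 and 3 without the low-Csl libraries. Slc1a3, a glutamate transporter of astrocytes, lay at 732, 863 and 1050 CPM on HFD and 576, 692 and 906 CPM on ND (0.29 ± 0.09, edgeR adjusted p = 0.599), and 2 HFD animals exceeded all ND animals. Glul, glutamine synthetase, lay at 1617, 1851 and 2135 CPM against 1387, 1592 and 1875 CPM, and Ndrg2 at 664, 839 and 901 CPM against 644, 702 and 767 CPM. The list median was -0.01 in APP/E3 females and 0.00 in APP/E4 males. Reactive astrocyte genes had 20 of 26 members above 0 and a median of 0.17, which became 14 of 26 and 0.08 without HFD female 4, and the median was 0.26 without ND female 1. Hspb1, a small heat shock protein of that list, lay at 2.17, 3.71 and 4.96 CPM against 1.37, 2.63 and 3.07 CPM, and Srgn, a proteoglycan of secretory granules, at 6.79, 9.41 and 9.74 CPM against 5.60, 7.07 and 8.00 CPM. Both exceeded all ND animals in 5 HFD animals.

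All 28 endothelial genes were above 0, with a median of 0.20 and 8 at unadjusted p under 0.05, from 2 without ND female 2 to 11 without ND female 4 and 3 without the low-Csl libraries. Mfsd2a, which carries omega-3 lipids into the brain and restrains transcytosis at the barrier, lay at 18.2, 21.8 and 30.1 CPM on HFD and 14.3, 17.7 and 20.02 CPM on ND (0.39 ± 0.12, edgeR adjusted p = 0.599). Pecam1, an endothelial adhesion molecule, lay at 24.8, 28.6 and 30.4 CPM against 21.2, 22.99 and 26.2 CPM (0.28 ± 0.11). Both exceeded all ND animals in 6 HFD animals. Slco1c1, a thyroid hormone carrier of the barrier, lay at 71.8, 82.5 and 93.7 CPM against 57.9, 69.2 and 77.8 CPM, and Ramp2 at 10.4, 12.8 and 14.1 CPM against 7.60, 9.83 and 12.6 CPM. The list score ran from 0.10 to 0.32 on HFD and from -0.13 to 0.17 on ND, and 4 HFD animals were above all ND animals. The median was -0.02 in APP/E3 females and 0.15 in APP/E4 males.

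Myelin genes went the other way in sign, with 2 of 26 above 0 and a median of -0.11, and 0 had an unadjusted p under 0.05. Without the low-Csl libraries the median was 0.00 and 14 were above 0, and without ND female 7 these were 0.06 and 19. With all libraries the list median was also below 0 in APP/E3 females (-0.15) and in APP/E4 males (-0.13). Trf, transferrin of oligodendrocytes, lay at 202, 268 and 328 CPM on HFD and 221, 305 and 537 CPM on ND, and ND female 7 held the highest value.

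Transcripts of adjoining tissue also differed between libraries. Of 20 choroid plexus markers 17 were tested, 16 were above 0 and 9 had an unadjusted p under 0.05, with a median of 1.43, or 0.86 without HFD female 5. The count of 9 became 2 without HFD female 5, and 5 without any one of HFD females 4 and 6 and ND females 6 and 7. Ttr, transthyretin of the choroid plexus, lay at 2.68, 76.9 and 651 CPM on HFD and 0.527, 7.41 and 88.0 CPM on ND (log2 difference 3.07 ± 1.12, edgeR adjusted p = 0.599), with 2.02 without HFD female 5 and 4.93 without the low-Csl libraries. Otx2, a transcription factor of the plexus, lay at 0.255, 1.48 and 2.42 CPM against 0, 0.341 and 0.631 CPM, and Kl, Klotho, at 2.82, 9.44 and 23.05 CPM against 2.61, 4.21 and 5.85 CPM. Each exceeded all ND animals in 5 HFD animals. The choroid plexus list was also above 0 in APP/E3 females (17 of 17, median 1.09, where 48.4% of all genes were) and lay at -0.27 in APP/E4 males.

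**Figure D5:**
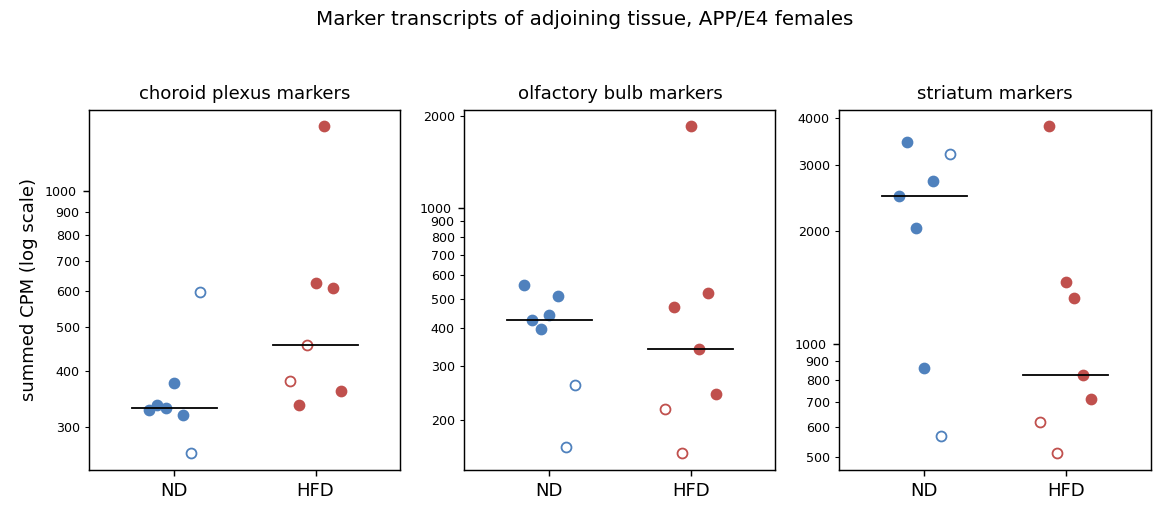
Summed CPM (log axis) of marker lists for choroid plexus, olfactory bulb and striatum in each of the 14 APP/E4 females (blue ND, red HFD, open circles low-Csl libraries, lines medians). Choroid plexus markers reach 1394 CPM in HFD female 5, olfactory bulb markers 1856 CPM in HFD female 4, and the striatal median is 825 CPM on HFD and 2483 CPM on ND. Enpp2, which is also on the myelin list, is part of the choroid plexus sum.

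Summed over all 20 genes, choroid plexus markers lay between 336 and 1394 CPM on HFD and between 263 and 597 CPM on ND, with up to 5 of them at 0 in a library and Ttr above 0 in each. Enpp2 is on both this list and the myelin list. It held 246 of 336 CPM in HFD female 2, 224 of 263 CPM in ND female 6 and 456.5 of 597 CPM in ND female 7. The sum is therefore not a measure of choroid plexus tissue alone. Striatal markers, which mark the tissue under the cortex, had 0 of 19 above 0 (median -0.84, none at unadjusted p under 0.05). Without HFD female 2 the median was -1.46 and 17 of the 19 had an unadjusted p under 0.05, and without the low-Csl libraries the median was -0.52. The sum of striatal markers had a median of 825 CPM on HFD (511 to 3807 CPM) and 2483 CPM on ND (567 to 3451 CPM). All 15 olfactory bulb genes tested were above 0 (median 1.06), and without HFD female 4 the median was -0.31 and 2 of 15 were above 0. Excitatory neuron genes, by contrast, had a median of -0.01 (-0.07 to 0.03 when 1 library was left out), with 10 of 23 above 0. The part of dissection and of these tissues in the gene differences was not tested.

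Because the diet was rich in fat, lipid genes were described separately. Genes of cholesterol synthesis and uptake lay lower on HFD. Of 28 tested, 4 were above 0, the median was -0.11 and 5 had an unadjusted p under 0.05 in the lower direction, against 3.1% of all genes. That count was 3 without HFD female 4 or ND female 6 and 10 without HFD female 7 or ND female 1, and the median was -0.07 without HFD female 4. Acat2, Sqle, Nsdhl and Insig1 were among these 5. Sqle, squalene epoxidase, lay at 65.1, 73.7 and 87.5 CPM on HFD and 77.6, 88.5 and 109 CPM on ND (-0.27 ± 0.09, edgeR adjusted p = 0.599), and 5 HFD animals were below all ND animals. Acat2, a cytosolic thiolase at the start of the pathway, lay at 30.6, 34.1 and 41.96 CPM against 34.7, 41.2 and 48.6 CPM, and 4 HFD animals were below all ND animals. Nsdhl, a later enzyme of the pathway, lay at 22.1, 25.2 and 31.5 CPM against 25.6, 30.7 and 37.9 CPM. Without the low-Csl libraries the log2 difference of Acat2 was -0.15, the list median was -0.08 and 2 genes had an unadjusted p under 0.05. The list median was -0.10 in APP/E3 females and 0.00 in APP/E4 males, and 5 of the 28 genes had an unadjusted p under 0.05 for the sex difference in the diet effect, against 3.85% of all genes.

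Of the 30 genes of fatty acid oxidation and fuel switching, 25 had a log2 difference above 0 and 7 had an unadjusted p under 0.05, and their median was 0.15. Eci1, a mitochondrial isomerase of unsaturated fatty acids, lay at 12.02, 14.5 and 15.8 CPM on HFD and 9.20, 12.2 and 13.6 CPM on ND (0.30 ± 0.10, edgeR adjusted p = 0.599), and 6 HFD animals exceeded all ND animals. Acadvl, which starts the oxidation of very long chains, lay at 44.9, 51.1 and 53.5 CPM against 37.7, 42.7 and 50.5 CPM, and 4 HFD animals exceeded all ND animals. By library, the list score ran from 0.05 to 0.22 on HFD and from -0.11 to 0.09 on ND, and 5 HFD animals were above all ND animals. The list median was 0.02 in APP/E3 females and -0.08 in APP/E4 males, and 5 of 30 genes had an unadjusted p under 0.05 for the sex difference.

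Lipoprotein handling genes were split, with 20 of 29 above 0 and a median of 0.08, or 16 of 29 and 0.03 without HFD female 4. Abca7, a lipid transporter and Alzheimer risk gene, lay at 27.7, 32.2 and 34.7 CPM on HFD and 21.1, 25.04 and 34.4 CPM on ND (0.29 ± 0.11), and Plin2, the coat protein of lipid droplets, at 5.73, 7.78 and 14.3 CPM against 5.05, 6.86 and 8.52 CPM. Each had 1 HFD animal above all ND animals, and the log2 difference of Plin2, 0.33, became 0.16 without HFD female 4. Apoe, counted on the mouse gene whose coding part the human APOE4 sequence replaces, lay at 18.6, 21.5 and 22.8 CPM against 14.9, 19.3 and 26.2 CPM (0.15 ± 0.10, or 0.24 without ND female 4, 0.09 without ND female 5 and 0.06 without the low-Csl libraries), and no HFD animal was outside the ND range. Insulin and insulin-like growth factor genes had 18 of 33 above 0 and a median of 0.01. Gsk3b, a kinase held back by insulin signalling, lay at 236, 274 and 304 CPM against 264, 312 and 341 CPM (-0.16 ± 0.07, edgeR adjusted p = 0.607), with 2 HFD animals below all ND animals. Irs1, an insulin receptor substrate, differed by 0.30 with and by 0.05 without HFD female 4.

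Genes of amyloid precursor processing had 13 of 26 above 0 and a median of 0.00. App, whose counts cannot be told apart from those of the transgene in a table of mouse genes, lay at 3325, 4601 and 5377 CPM on HFD and 4759, 5149 and 5430 CPM on ND. In 5 HFD animals it was below all ND animals, and the log2 difference was -0.18 ± 0.08 (edgeR adjusted p = 0.618), or -0.11 without HFD female 4, which held the lowest value. Prnp, the prion protein gene whose promoter drives the transgenes in this line, lay at 2281, 2983 and 3649 CPM against 2860, 3046 and 3522 CPM (-0.04 ± 0.10), and its difference was 0.02 without HFD female 4. Adam17, an alpha-secretase, lay at 18.5, 20.4 and 25.2 CPM against 14.4, 18.4 and 21.4 CPM, and Mme, neprilysin, at 4.72, 5.99 and 29.1 CPM against 6.30, 15.7 and 29.6 CPM. For Mme 4 HFD animals were below all ND animals, and HFD female 2 had the highest HFD value. These 4, HFD females 1, 3, 6 and 7, also had the lowest HFD scores of the striatal list (-2.415 to -1.18). HFD female 2 had the highest (1.156). The part of striatal tissue in the Mme difference was not tested.

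Transcription and chromatin regulators had 17 of 53 above 0 on HFD in APP/E4 females, with a median of -0.03, and 51 of 53 in APP/E3 females, with a median of 0.12 (48.4% of all genes there). For the genotype difference in the diet effect 16 of the 53 had an unadjusted p under 0.05, where 6.07% of all genes did, and 0 were called by edgeR. Low-Csl libraries are unevenly split by diet in APP/E3 females, so diet and this class are mixed in these differences. Sin3a, a scaffold of histone deacetylases, lay at 38.2, 40.7 and 54.1 CPM on HFD and 41.9, 49.9 and 53.9 CPM on ND in APP/E4 females. Its difference was -0.15 ± 0.07 there (-0.05 without the low-Csl libraries) and 0.16 ± 0.07 in APP/E3 females, and the genotype difference was -0.31 ± 0.10 (edgeR adjusted p = 0.802). Kdm5a, a histone demethylase, differed by -0.16 ± 0.09 against 0.13 ± 0.08, and Taf1, a subunit of the general factor TFIID, by -0.13 ± 0.07 against 0.11 ± 0.07.

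Whether the diet effect of APP/E4 females differed from that of APP/E3 females was tested gene by gene, and 0 of 15195 genes were called (0%), with 922 at unadjusted p under 0.05 (6.07%). DESeq2 and voom also called 0, with 954 and 895 at unadjusted p under 0.05. Without the low-Csl libraries of both genotypes edgeR called 0, with 881 at unadjusted p under 0.05. The smallest p values belonged to 4931414P19Rik, Fam49a, Tmco6, Rn18s, Sema6c and Amt, all with an edgeR adjusted p of 0.802. 4931414P19Rik lay at 3.78, 4.79 and 5.76 CPM on HFD and 2.84, 3.78 and 4.33 CPM on ND in APP/E4 females, a difference of 0.43 ± 0.12 against -0.29 ± 0.12 in APP/E3 females. Fam49a, a regulator of actin remodelling through Rac1, differed by -0.22 ± 0.08 in APP/E4 females and by 0.21 ± 0.07 in APP/E3 females. Sema6c, a semaphorin of axon guidance, differed by 0.28 ± 0.10 against -0.25 ± 0.10. Rn18s, ribosomal RNA that escaped mRNA selection, differed by 0.15 ± 0.54 against -2.74 ± 0.55, and the first of these ran from 0.01 to 0.31 when 1 library was left out. Of the APP/E3 female diet comparison itself 4 genes were called (0.0263%), 3 of them haemoglobin genes and the other Rn18s.

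Against APP/E4 males edgeR also called 0 of 15195 genes for the difference in diet effect (0%), with 585 at unadjusted p under 0.05 (3.85%), while DESeq2 called 3 and voom 0 (613 and 579 at unadjusted p under 0.05). Beside Slc19a3, Arid3c and Ccdc24, the smallest p values belonged to Srek1ip1 (0.17 ± 0.08 in females against -0.30 ± 0.09 in males), D17H6S53E (0.29 ± 0.10 against -0.24 ± 0.11) and D2Wsu81e (0.20 ± 0.06 against -0.12 ± 0.07), with an edgeR adjusted p of 0.997. The genes DESeq2 called were Aox2, Alb and Cyp1a2, whose highest count in any APP/E4 female library was 12, 25 and 8. Aox2 was at 0 in 3 HFD and 4 ND females, Alb in 4 and 3, and Cyp1a2 in 5 and 6. Aox2 and Cyp1a2 did not pass the filter of the edgeR test, and Alb had an edgeR adjusted p of 0.997.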

How the data were processed

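The authors deposited a table of read counts per mouse gene for 52 libraries, and these counts were used as deposited. Per the submitters' processing notes, the tools named are Subread, featureCounts, limma and edgeR 3.14.0 with genome build mm9; the order and settings of these steps are not given in those notes. Genotype, diet and sex came from the labels. Of 15692 genes, 497 were removed by filterByExpr over the 8 groups and 15195 were tested; 24 symbols that a spreadsheet had turned into dates were restored. Counts were scaled with TMM factors, and edgeR 4.0.16 in R 4.3.3 fitted 1 mean per group to all 52 libraries by robust quasi-likelihood, so that the 8 groups share 1 estimate of spread. The contrast was HFD minus ND in APP/E4 females, with its differences from APP/E3 females and from APP/E4 males. P-values were adjusted by Benjamini-Hochberg over all genes tested, and called means an adjusted p under 0.05. Alternatives were DESeq2 1.42.0, voom (limma 3.58.1), other normalisation, filters, library sets and terms, and leaving out each of the 14 libraries. The scripts were tested on simulated data.

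Named genes were the 15 with the smallest p in each direction among those with a mean of at least 1 CPM in the higher group, up to 4 members of each list with the smallest p, 6 for each interaction, and fixed checks; a few of these genes are not reported here. The members and lists were chosen with earlier results of these data known, so lists are given as counts and medians beside all genes, with no test. Oas1a, Omp, Drd2, Aox2, Alb and Cyp1a2 were added to the named genes after their values were seen. List scores use log2 CPM with a prior count of 2. Promoter and miRNA sequences are RefSeq's of GRCm38.p6 and were matched by symbol, not by coordinates of the counted build.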

Additional observations from a re-analysis of the deposited data

Results flagged for a closer look

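In 274 groups of 7 animals (named genes and list scores by diet), 29 had 1 animal far from the other 6: its gap to the nearest animal, as a share of the whole range, passed Dixon's 95% critical value for 7 values. Chance alone would mark about 5% of such groups, and several of these lie in the same animal. Omp, Drd2, Aox2, Alb and Cyp1a2 were added after their values were seen and are among the 29. The count therefore cannot be set against that share. Their part in the diet differences is given in the report where a value moved.

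HFD female 4 was the high animal of its group for the microglial genes Lyn (24.7 CPM) and Igf1 (40.0 CPM, next 18.2), and for Ifitm3 (25.6 CPM), an antiviral membrane protein, and Tap2 (12.1 CPM), the peptide pump of antigen presentation. It was also high for the metabolic genes Plin2 (14.3 CPM) and Irs1 (50.2 CPM), and for Adam17 (25.2 CPM). Olfactory marker protein Omp was at 123 CPM there, with the next HFD animal at 6.99 CPM. The low-count genes Aox2 (1.51 CPM) and Cyp1a2 (1.01 CPM) were high in it as well.

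HFD female 5 was high in the choroid plexus genes Ttr (651 CPM, next 201), Sostdc1 (6.15 CPM) and Enpp2 (615 CPM), and ND female 7 in Ttr (88.0 CPM, next 21.6), Enpp2 (456.5 CPM) and the oligodendrocyte gene Trf (537 CPM). Enpp2 is on the myelin list as well. HFD female 2 was high in the striatal dopamine receptor Drd2 (64.4 CPM, next 16.5), in Mme (29.1 CPM) and in Pth2r (2.02 CPM). HFD female 7 held the 1 high value of Alb (3.19 CPM).

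ND female 4 was the high ND animal for Axl (75.1 CPM) and Cyp1a2 (0.316 CPM), and its list scores were 0.227 for plaque-induced microglial genes, 0.165 for the phagocyte oxidase and lysosome list and 0.229 for astrocyte identity, with the next ND scores at 0.021, 0.014 and 0.021. ND female 1 was high in Ticam2 (1.22 CPM), a Toll-like receptor adaptor, and in Ifitm3 (17.2 CPM). HFD female 6 had the lowest Fam49a (217 CPM) and the highest score of the Toll-like receptor and NF-kB list (0.31, next 0.158).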

How the results depend on the processing

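Between HFD and ND in APP/E4 females 0 genes were called under each of 22 alternatives, of which DESeq2 and voom were 1 each and the others edgeR fits, with the smallest adjusted p from 0.0670 (without ND female 4) to 0.760 (without ND female 2). The number of genes at an unadjusted p under 0.05 ran from 728 without HFD female 6 and 742 without ND female 2 to 1652 without ND female 4. The genotype difference gave 0 calls under all 21 alternatives, with 658 to 1342 such genes. The sex difference gave 0 under 21 of 22, and DESeq2 called 3 there, all low-count genes; the unadjusted number was 940 without the low-Csl libraries and 923 with a term for title style. Of 115 named genes 3 changed sign: Arid3c (0.0714 without the low-Csl libraries), Prnp (0.0216) and Omp (-0.92), the last 2 without HFD female 4. Medians of 10 of 40 lists changed sign under at least 1 setting, with myelin (0.06 without ND female 7) and olfactory bulb (-0.31 without HFD female 4) among them; the cause was not tested. The median over all genes moved by at most 0.0064 under any alternative. No paired analysis was possible because replicate numbers follow the deposit order and pair no animals. At this depth, genes under about 0.412 CPM rest on 3 or fewer counts in some libraries.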

Other observations

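Other gene groups were examined in APP/E4 females in the same way, and none had a called member. Glutamate and GABA receptor genes had 11 of 36 above 0 on HFD and a median log2 difference of -0.05, with 3 at an unadjusted edgeR p under 0.05, all lower. This count was 0 without ND female 5, 1 without HFD female 4, HFD female 6 or ND female 2, and 4 at most, and the median was -0.09 without HFD female 4, ND female 6 or ND female 7 and -0.11 without the low-Csl libraries. Genes of mural cells and fibroblasts, which wrap vessels and line the meninges, had 25 of 30 above 0 and a median of 0.20, which was 0.12 without ND female 7, 0.32 without HFD female 1 and -0.19 in APP/E3 females. Cytosolic ribosomal protein genes had 59 of 76 above 0 (median 0.07), and that median was 0.04 without ND female 2, 0.15 without ND female 6 and 0.14 without the low-Csl libraries. Oxidative phosphorylation genes had 28 of 73 above 0 (median -0.02, against -0.11 in APP/E4 males), and the median was 0.01 without ND female 6 and 17 of 73 were above 0 without ND female 5.

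Immediate early genes, which follow neuronal activity, had 31 of 39 above 0 and a median of 0.10, which was 0.00 without ND female 5 (20 of 39), 0.01 without HFD female 1 and 0.19 without ND female 6. By library the order was the other way, with a median list score of 0.21 on HFD and 0.296 on ND. Only 1 HFD animal was above the ND median. ND females 2, 4 and 5 had low scores of -0.375, -0.458 and -0.786. Circadian clock genes had 13 of 24 above 0 and a median of 0.01, from -0.03 to 0.03 when 1 library was left out. Genes of blood cells, a measure of residual blood after perfusion, had 5 of 10 above 0, and their summed level lay between 24.3 and 49.4 CPM on HFD and between 29.4 and 51.3 CPM on ND.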
